A study of Arabidopsis thaliana with 4 samples.

Results

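The genes described here are 31 genes of ethylene synthesis and signalling in Arabidopsis thaliana, taken by name from a fixed list out of 27444 protein-coding nuclear genes. Each was examined for ChIP-seq summits of the transcription factor TCP4, a CIN-type TCP protein that acts in leaf and cotyledon growth. A gene is said to hold a summit when the position of highest signal of a deposited peak lies inside it or within 1000 bp of either end. Of the 7470 deposited summits, 21 met this rule, in 19 numbered peaks, and they fell at 13 of the 31 genes.

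The material was whole seedlings grown for 4 days in darkness, after stratification at 4 °C for 3 days and 3 to 4 h of white light to start germination. The genotypes were wild type (Col) and a TCP4 overexpression line labelled mTCP4, and both were precipitated with an antibody against the Myc epitope. There was 1 ChIP library and 1 input library of each genotype, 4 in all, and the deposited list compares mTCP4 with Col. The labels do not name the promoter that drives TCP4 or the number of independent lines, and whole seedlings mix cell types. With no replicate, no test between genotypes was possible, and no value below carries a replicate error.

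Ethylene is made from S-adenosylmethionine in a pair of steps. ACC synthases (ACS) form the precursor ACC, and ACC oxidases (ACO) turn it into ethylene. The receptors at the endoplasmic reticulum keep the kinase CTR1 active in the absence of the hormone, and CTR1 holds back EIN2. Ethylene releases EIN2, the transcription factors EIN3 and EIL1 accumulate because the F-box proteins EBF1 and EBF2 no longer remove them, and genes such as ERF1 and HLS1 respond. In dark-grown seedlings this pathway maintains the apical hook.

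The share of ethylene genes with a summit was 13 of 31 (41.9%), beside 19.7% of all protein-coding genes (5394 of 27444). The 31 genes were chosen with earlier results of these data known, and the difference was not tested. By role the share was 6 of 10 synthesis genes, 0 of 3 genes that control ACS turnover and 2 of 5 receptors. It was 0 of 1 receptor regulator and 5 of 12 downstream signalling genes. The positions, pileups, folds and q-values at each summit are the authors' own. Fragment numbers and control levels were recovered from the deposited pileup and fold. Fold is the ratio of the ChIP pileup to the control level at the summit on a linear scale, and the range after it is an exact 95% Poisson interval of the fragment number, with the control level held fixed. It covers counting error only. Fragment numbers at the 21 summits ran from 47 to 157 with a median of 93, beside a median of 86 over all summits.

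**Figure D1:**
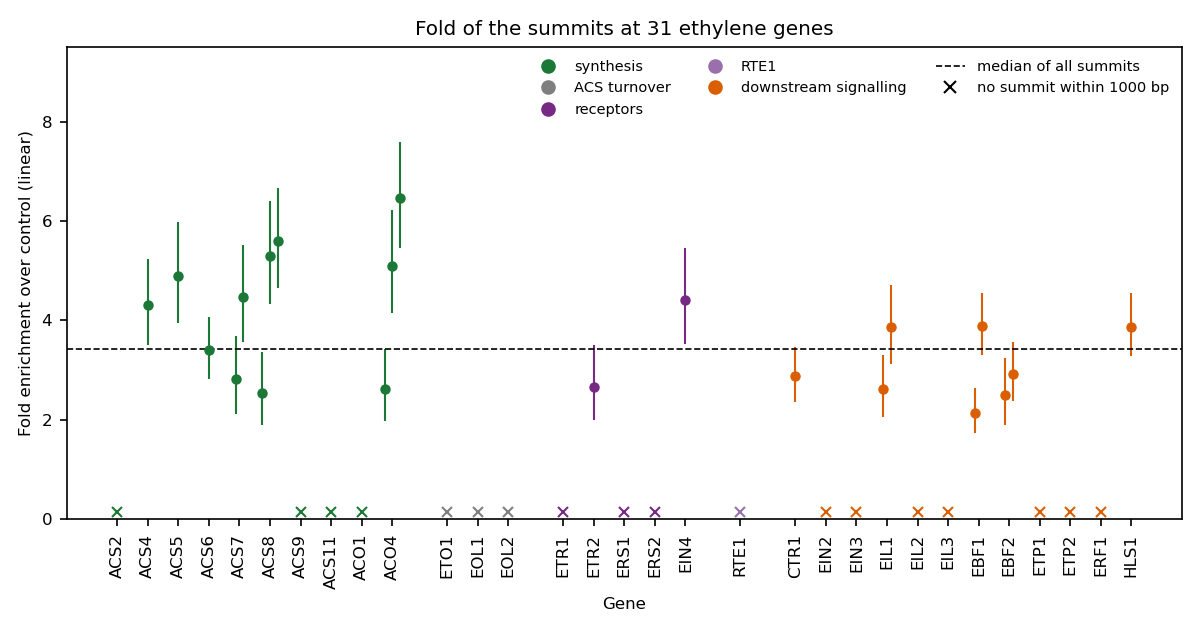
Fold enrichment over control (linear axis) of the summits at each of the 31 genes, grouped by role, with exact 95% Poisson intervals as bars, crosses for genes with no summit inside or within 1000 bp, and the median of all 7470 summits (3.43) as a dashed line. The points run from 2.15 at EBF1 to 6.46 at ACO4, and the 3 genes of ACS turnover carry crosses.

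Among the ACC synthases, which set the rate of ethylene production in many tissues, 5 of 8 held a summit. The share over all protein-coding genes was 19.7%. They are usually sorted by their C-terminal ends into types with different control of protein stability. Of the type 2 enzymes, which ETO1 and its relatives mark for degradation, ACS4, ACS5 and ACS8 held one, and ACS9 and ACS11 did not. Of the type 1 enzymes, which MAP kinases stabilise, ACS6 held one and ACS2 did not. ACS7, the type 3 enzyme, held a pair. With so few genes of each type, these counts do not set the types apart.

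ACS8 (AT4G37770) had 3 summits in a row beyond its lower-coordinate end on chromosome 4, all in 1 numbered peak. The nearest, at position 17751600 and 479 bp from the gene, had a fold of 5.29 (4.33 to 6.41). The next, at 17751398 and 681 bp, had a fold of 5.59 (4.64 to 6.67), and the outermost, at 17751083 and 996 bp, 2.55 (1.89 to 3.36). The inner summits of ACS8 thus overlapped in their intervals, and the outermost lay below both. No other protein-coding gene was within 4000 bp of these positions; the closest, SQE3, was 4386 bp from the outermost.

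ACS5 (AT5G65800) had its summit 482 bp past the higher-coordinate end (chromosome 5, position 26333294), and its fold was 4.89 (3.95 to 5.99). ACS4 (AT2G22810) had one 553 bp beyond its higher-coordinate end (chromosome 2, position 9720147), and its fold was 4.31 (3.51 to 5.24). ACS7 (AT4G26200) had summits 391 and 952 bp beyond its higher-coordinate end on chromosome 4. At 13277579 the fold was 2.82 (2.13 to 3.68) and at 13278140 it was 4.47 (3.57 to 5.52), with overlapping intervals. ACS6 (AT4G11280) had the summit closest to a gene end of any member outside a gene, 2 bp beyond its lower-coordinate end (chromosome 4, position 6863977), and its fold was 3.41 (2.83 to 4.07). These ACS summits lay outside the genes, and for ACS5, ACS6 and ACS7 no other protein-coding gene was within 3000 bp.

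ACO4 (AT1G05010), also named EFE for ethylene-forming enzyme, had the highest fold within 1000 bp of the 31 genes. Its strongest summit lay inside the gene, 180 bp from the higher-coordinate end (chromosome 1, position 1432830), and its fold was 6.46 (5.47 to 7.59) from 146 fragments. Of all summits, 90.5% had this fold or a lower one. Another summit, 824 bp outside the lower-coordinate end at position 1430353, had a fold of 5.10 (4.14 to 6.22), and the last, 510 bp outside the higher-coordinate end at position 1433520, had 2.62 (1.97 to 3.42). The summit at 1430353 was nearer to another protein-coding gene, AT1G05005, at 297 bp. ACO1, the other oxidase of the list, had no summit within 1000 bp, and the nearest, 1902 bp away at fold 4.04, lay inside TET2.

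The other synthesis genes without a summit differed in how far the nearest one was. For ACS2 it was 4069 bp away at fold 2.15, inside AT1G01490. For ACS9 it was 12943 bp away, and for ACS11 307297 bp away. ACS11 borders a stretch of 114871 bp without a protein-coding gene.

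The genes that control ACS turnover held no summit. ETO1, a BTB protein that brings type 2 ACS enzymes to a ubiquitin ligase, had its nearest summit 1908 bp away at fold 3.35 (2.65 to 4.18), and that position was 396 bp from BAG4. The nearest summits of the ETO1-like genes EOL1 and EOL2 were 15164 and 4696 bp away. With 3 genes and a background of 19.7%, a count of 0 does not set them apart.

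The ethylene receptors form a pair of subfamilies, one with a complete histidine kinase domain (ETR1 and ERS1) and one in which that domain is degenerate (ETR2, ERS2 and EIN4). Neither gene of the first held a summit, and 2 of 3 in the second did, beside 19.7% of all protein-coding genes. Counts this small do not set the subfamilies apart, and they moved with the distance allowed. Within 500 bp EIN4 was lost, and within 2000 bp ETR1 was gained. EIN4 (AT3G04580) had a summit 887 bp beyond its lower-coordinate end (chromosome 3, position 1234322), and its fold was 4.41 (3.52 to 5.46) from 82 fragments. ETR2 (AT3G23150) had one 36 bp beyond its lower-coordinate end, at position 8254523 of the same chromosome, and its fold was 2.67 (1.99 to 3.50) from 49 fragments. The interval of EIN4 began just above where that of ETR2 ended. Both summits stood at the lowest control level of the list, 12.9, and the ETR2 fold was in the lower quartile of all summits (below 2.76).

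ERS1 and ERS2 had their nearest summits 12089 and 11685 bp away. ETR1, in contrast, had 4 summits between 1000 and 5000 bp. One lay 1614 bp beyond its lower-coordinate end, inside AT1G66330, and its fold was 4.80 (4.02 to 5.70). The others lay 1697, 2683 and 2823 bp outside the higher-coordinate end, with folds of 4.15, 5.37 and 5.42, and the first of these was 100 bp from AT1G66345. RTE1, a membrane protein that promotes the signalling of ETR1, had its nearest summit 9391 bp away.

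Downstream of the receptors, CTR1 (AT5G03730), the kinase that represses the pathway, had a summit 296 bp beyond its lower-coordinate end (chromosome 5, position 974064), and its fold was 2.88 (2.36 to 3.48). It falls within the adjacent gene HSFA3, which encodes a heat stress transcription factor. EIN2, the membrane protein that carries the signal to the nucleus, had its nearest summit 6483 bp away. The F-box genes ETP1 and ETP2, whose proteins target EIN2 for degradation, had theirs 7467 and 10916 bp away.

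Of the 4 genes of the EIN3 family, EIL1 held summits and EIN3, EIL2 and EIL3 did not, beside 19.7% of all protein-coding genes with a summit. This count is near that share and does not set EIL1 apart from its relatives. EIL1 (AT2G27050) had one inside the gene, 147 bp from its lower-coordinate end (chromosome 2, position 11545803), and its fold was 2.63 (2.06 to 3.31). Its second summit lay 416 bp outside the higher-coordinate end at position 11548709, and its fold was 3.86 (3.13 to 4.72). EIN3, the closest relative of EIL1 in function, had its nearest summit 25823 bp away at fold 6.69. For EIL2 the nearest was 6943 bp away. EIL3, known as SLIM1 for its role in the response to sulfur limitation, had a summit at fold 6.61 (5.55 to 7.81) at 1138 bp, just outside the rule, and this summit was 203 bp from AT1G73740.

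Both EBF genes held a pair of summits each. Of all protein-coding genes, 19.7% held a summit, and 28.5% of those held 2 or more. EBF1 (AT2G25490) had one 206 bp beyond its lower-coordinate end (chromosome 2, position 10847169), and its fold was 3.89 (3.31 to 4.54) from 157 fragments, the highest fragment number among the 21 summits. The other lay inside the gene, 201 bp from the higher-coordinate end at position 10850596, and its fold was 2.15 (1.73 to 2.64), the lowest of the 21. EBF2 (AT5G25350) had one inside the gene, 156 bp from its higher-coordinate end (chromosome 5, position 8797193), and its fold was 2.93 (2.37 to 3.57), and one 931 bp outside that end at position 8798280, with 2.50 (1.89 to 3.25). The intervals of the EBF1 summits did not overlap and those of the EBF2 summits did.

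HLS1 (AT4G37580), the HOOKLESS gene needed for the apical hook, had its summit 395 bp past the higher-coordinate end (chromosome 4, position 17661273). Its fold was 3.88 (3.28 to 4.55) from 146 fragments, as many as at ACO4. ERF1, a transcription factor gene that EIN3 activates, held none, and its nearest summit was 1463 bp away at fold 3.51 (2.73 to 4.46). HLS1 and EBF1 had nearly equal folds, and ERF1 fell outside the rule by less than 500 bp.

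**Figure D2:**
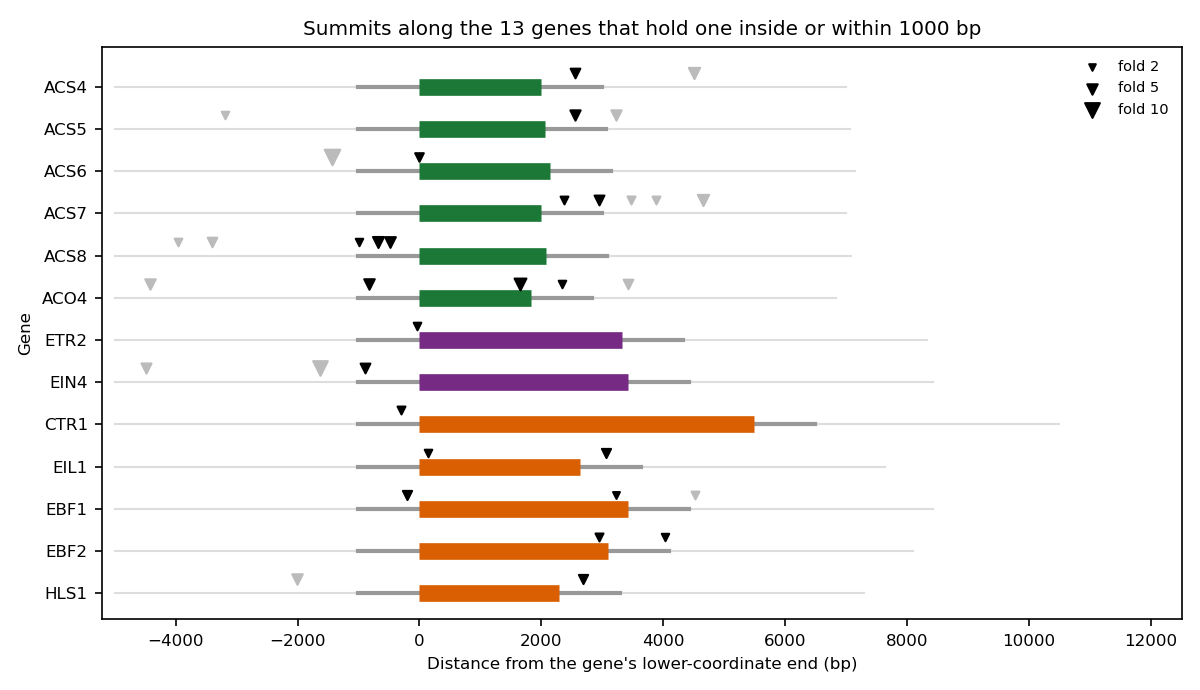
Summits (triangles, area in proportion to fold) along the 13 genes that hold one, with each gene as a coloured bar and the distance in bp from its lower-coordinate end on the x axis. Black triangles lie inside or within 1000 bp, grey ones between 1000 and 5000 bp, as at ACS6 and EIN4, where the grey triangles at 1431 and 1639 bp are the largest of their rows.

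The 21 summits lay outside the genes in 17 cases and inside in 4 (19.0%), beside 30.2% inside among the 7465 pairs of a summit and a protein-coding gene that met the same rule. The inside ones were 147 to 201 bp from a gene end. Outside, the median distance was 482 bp, with 9 summits beyond a lower-coordinate end and 8 beyond a higher-coordinate end. The gene table used gives no strand, so the ends are not named as upstream or downstream. No other protein-coding gene was within 1000 bp of 17 of the 21 summits (81.0%), beside 50.6% of all such pairs. Neither difference was tested. For the other 4, at ACS4, ACO4, CTR1 and EBF1, a neighbour was also in reach, and the summits at CTR1 and at position 1430353 near ACO4 were nearer to that neighbour than to the ethylene gene.

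More than 1 summit was found at ACS7, ACS8, ACO4, EIL1, EBF1 and EBF2, 6 of the 13 genes with a summit. The corresponding share over all protein-coding genes with a summit was 28.5%. ACS8 and ACO4 had 3 each, as did 7.49% of protein-coding genes with a summit when those with more are included. The fold of the 21 summits had a median of 3.86, beside 3.43 over the whole list, with 5 in the upper quartile of all summits (above 4.72) and 6 in the lower. Taking the highest fold per gene, the 13 genes had a median of 3.89 and all protein-coding genes with a summit 3.60. The −log10 q of the 21 summits ran from 4.85 to 48.7 with a median of 19.3, beside a median of 14.2 over the list.

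For some genes stronger summits lay farther out. For 6 of the 13 genes (ACS4, ACS5, ACS6, ACS7, EIN4 and HLS1) the highest fold within 5000 bp was beyond the 1000 bp rule, beside 27.8% of all protein-coding genes with a summit. ACS6 had a summit at fold 11.2 (9.74 to 12.8) 1431 bp beyond its lower-coordinate end (chromosome 4, position 6862548), which ranked 33 of 7470 by fold. Its interval lay wholly above that of the summit 2 bp from ACS6, and the next protein-coding gene, AT4G11270, was 1646 bp from it. EIN4 had a summit at fold 9.92 (8.55 to 11.4) 1639 bp beyond its lower-coordinate end (chromosome 3, position 1233570), and AHL19 was closer to it, at 1119 bp. Lower folds than these were listed at the outer summits of ACS4 (5.83 at 2518 bp), ACS7 (5.80 at 2663 bp), HLS1 (5.05 at 2014 bp) and ACS5 (4.95 at 1160 bp). At ACS4, ACS5, ACS7 and HLS1 the interval of the outer summit overlapped that of the highest summit within 1000 bp, and at ACS6 and EIN4 it did not.

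Set side by side by role, the highest fold per gene had a median of 4.68 at the 6 synthesis genes (3.41 to 6.46), 3.54 at the 2 receptors (2.67 to 4.41) and 3.86 at the 5 downstream genes (2.88 to 3.89). All but ACS6 of the synthesis genes were above all 5 downstream genes in fold, but the interval of ACO4 alone began above all 5 downstream intervals, and those of ACS4, ACS5, ACS6, ACS7 and ACS8 each overlapped at least 1 of them. With the summit nearest to each gene in place of the highest, ACS7 (2.82) was also below CTR1, EBF2 and HLS1. The difference between the roles was not tested. The fragment numbers behind these folds did not separate in that way, with 83 to 146 at synthesis genes (median 108.5) and 93 to 157 at downstream genes (median 104). The control level at the summit had a median of 15.4 at synthesis genes and 26.0 at downstream genes, and since fold is a ratio to it, its part in the difference of folds was not tested. The receptors had the lowest control level (12.9 at both). Among the highest summits per gene, they also had the lowest fragment numbers (49 at ETR2 and 82 at EIN4). The highest summits of ACS5 and ACS7 stood at this control level too. That of ACS7 was close to that of EIN4, with 83 fragments and a fold of 4.47. At the lowest control level stood 6 of the 21 summits (28.6%), beside 18.3% of the whole list. They belonged to ACS5, ACS7, ACO4, ETR2 and EIN4, so that 5 of 31 members held a summit at this level, beside 3.17% of protein-coding genes.

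**Figure D3:**
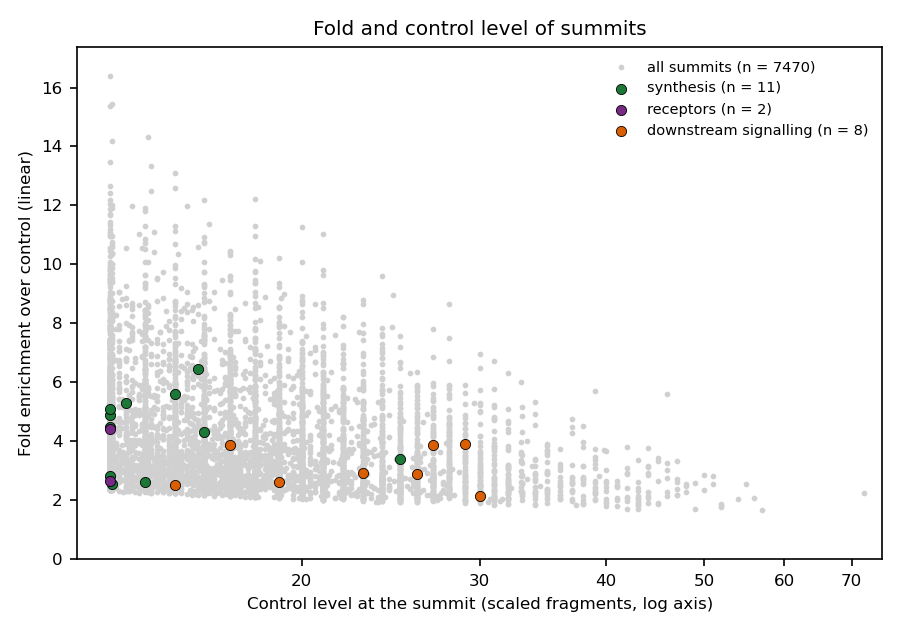
Fold enrichment over control (linear axis) against the control level at the summit (scaled fragments, log axis) for all 7470 summits in grey and the 21 summits at ethylene genes in colour by role. The 5 downstream genes have their highest summits at control levels of 17.0 to 29.0, and the synthesis genes at 12.9 to 25.0.

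Widening the distance brought in more members at each step up to 2000 bp. A summit inside the gene was listed for 4 of the 31 genes, beside 6.75% of protein-coding genes. Within 500 bp it was 11 of 31, beside 14.8%, and within 2000 bp 18 of 31, beside 26.5%. The 5 genes gained between 1000 and 2000 bp were EIL3 (1138 bp), ERF1 (1463 bp), ETR1 (1614 bp), ACO1 (1902 bp) and ETO1 (1908 bp). At the inner side of the rule, the genes reached last were EIN4 (887 bp) and ACS4 (553 bp). Within 5000 bp it was 20 of 31 (64.5%), beside 43.9%, which left 11 genes with no summit nearer than that: ACS9, ACS11, EOL1, ERS1, ERS2, RTE1, EIN2, EIN3, EIL2, ETP1 and ETP2.

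**Figure D4:**
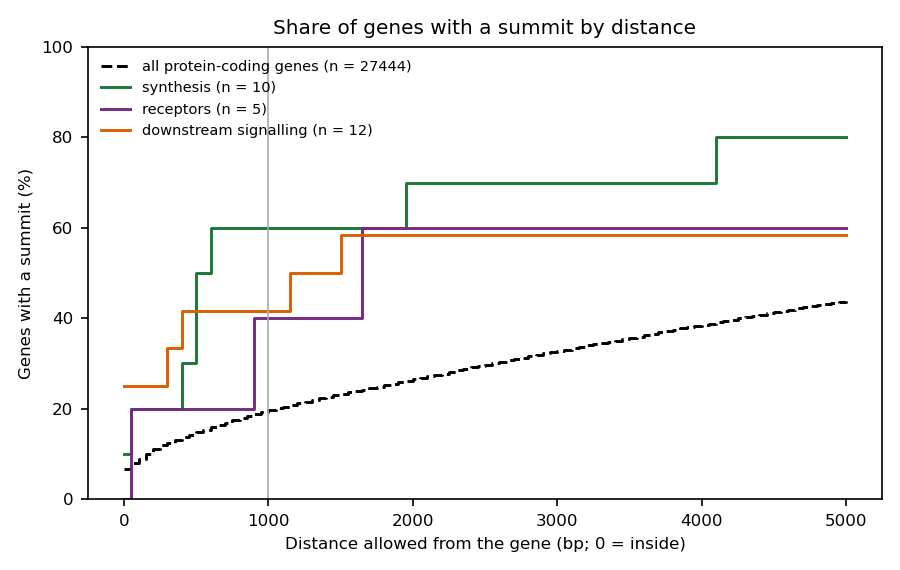
Share of genes (%) with a summit inside or within the distance on the x axis (bp), for all protein-coding genes as a dashed line and for 10 synthesis, 5 receptor and 12 downstream genes. At the grey line of 1000 bp the shares are 60.0, 40.0 and 41.7% beside 19.7%, and at 5000 bp 80.0, 60.0 and 58.3% beside 43.9%.

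The space between genes also differed. The gaps to the next protein-coding gene on both sides, added together, had a median of 3247 bp for the 31 genes and 1855.5 bp for all protein-coding genes. It was 4835 bp for the 13 members with a summit and 2295 bp for the 18 without. Among protein-coding genes with a summed gap of 3247 bp or more, 23.0% held a summit, and 9 of the 16 ethylene genes with such gaps did. Below that gap the share was 18.1%, and 4 of the 15 ethylene genes held one (ACS4, EIN4, CTR1 and EBF2). The summed gap was 11870 bp at HLS1, which held a summit, and 115797 bp at ACS11, which did not. At ACS11, 114871 bp of it lay on the higher-coordinate side and 926 bp on the other. The part of gap size in these counts was not tested.

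A further 27 genes of ethylene synthesis, signalling and response that were matched from a list of 30 names gave 13 with a summit (48.1%, background 19.7%). The highest folds within 1000 bp were at transcription factor genes that respond to ethylene. TEM1, one of the EDF genes downstream of EIN3, had a summit at fold 7.89 (6.94 to 8.94) 427 bp from the gene. RAV1 (EDF4) had one with 7.43 (6.26 to 8.76) and EDF3 one with 6.42 (5.34 to 7.67). TEM2 (EDF2) had one inside the gene with 4.08 (3.27 to 5.03), so that 4 of 4 EDF genes held a summit. This group was picked out after its values were seen. Higher folds lay between 1000 and 5000 bp at TEM2 (10.8 at 2547 bp) and TEM1 (10.4 at 3109 bp), each nearer to another protein-coding gene. RAV1 and EDF3 had none higher at that distance. In the same list, 0 of 4 further ACS and ACO genes and 0 of 2 receptor-associated genes held one. ERF2, an activator of defence genes, had summits with folds of 6.69 (5.68 to 7.83) and 5.81 (4.82 to 6.95), and ERF4, a repressor, had 3 summits, the highest with 4.64 (3.89 to 5.50). Of the 5 ERF-type genes in the list (ERF2, ERF4, ERF5, ERF6 and ESE1), 4 held a summit and ERF6 did not.

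Upstream of ethylene, MKK9, a MAP kinase kinase that acts through MPK3 and MPK6 to raise ethylene production, had a summit at fold 5.99 (5.06 to 7.04) at 603 bp. MTO3, an S-adenosylmethionine synthetase, had one with 4.47 (3.91 to 5.08) at 178 bp. A summit was held by 2 of 4 genes of that enzyme, beside 19.7% of all protein-coding genes. The remaining synthesis genes in the list (ACS1, ACS10, ACS12 and ACO5) held none. ACS10 and ACS12 encode aminotransferases without ACC synthase activity. The receptor-associated genes RTH and RAN1, a relative of RTE1 and the copper transporter that supplies the receptors, held none. Groups of so few genes are not set apart from the share over all protein-coding genes by these counts.

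**Figure D5:**
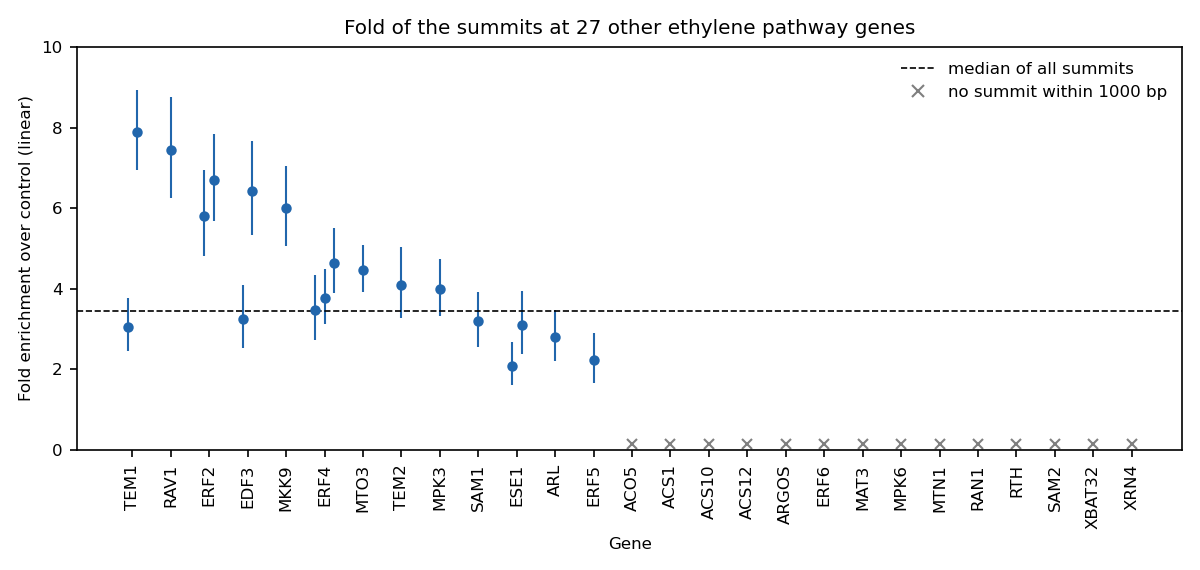
Fold enrichment over control (linear axis) of the summits at 27 other ethylene pathway genes, sorted by their highest fold, with exact 95% Poisson intervals as bars, crosses for genes with no summit inside or within 1000 bp, and the median of all summits (3.43) dashed. The highest fold per gene runs from 7.89 at TEM1 to 2.22 at ERF5, the lowest point is 2.08 at ESE1, and 14 genes carry crosses.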

How the data were processed

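The only file analysed was 1 peak list of mTCP4 against Col. Reads were handled with Bowtie 0.12.9 and MACS2 2.1.1 on build TAIR10, per the submitters' processing notes. The use of the input libraries in the calls and the cutoff are not stated in the labels. The list, per the file headers, gives a summit, pileup (a deposited signal of scaled fragments), fold (a deposited ratio to the control level) and p-values and q-values as −log10. The deposited intervals run 5000 bp to each side of all but 1 summit, so summits were used as positions.

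Control levels were recovered from pileup and fold with a pseudocount of 1, and fragments as pileup divided by the step of 0.737 (100% of pileups whole multiples within 0.01). Gene names, ends and classes came from a RefSeq table of TAIR10.1. In 20 of 20 chromosome segments the share of summits inside genes was lowest within 200 bp of no shift, among shifts of up to 1000 bp. Distances were computed with pandas 2.3.3 and scipy 1.17.1, and the gene calls were tested on simulated summits. Library totals are unknown here.

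The members and lists were chosen with earlier results of these data known. Named genes are all members, the 8 genes with the highest folds in a list of 30 other pathway genes, and genes that hold or are nearer to a summit. Other genes of that list and neighbouring genes are named where a small group is counted or described, and were chosen after their values were seen. In the list, ACO3, EIL4 and EIL5 had no match. A gene outside these 30 is not reported here. No genome sequence was used, so the planned motif counts were not run.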

Additional observations from a re-analysis of the deposited data

How the results depend on the processing

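Counts of genes with a summit were recomputed under 8 alternatives, and most stayed within 1.5 times the reported value. With the summits at the lowest control level alone, 5 of 31 members were left (16.1%, beside 3.17% or 870 of all protein-coding genes), with 3 synthesis genes, 0 downstream genes and 2 of the other pathway genes. With the upper 50% of summits by fold, 9 of 31 members (29.0%, beside 10.7% or 2947 genes) were left, with 1 receptor and 3 downstream genes. Fewer summits enter both settings by construction. Within 500 bp 1 receptor held a summit, and within 2000 bp 1 gene of ACS turnover did. Gene ends alone and q of 1e-05 or less gave the same 13 members, the nearest gene alone lost CTR1, and 1 summit per numbered peak lost ACS5. Taking the summit nearest to each gene in place of the highest changed the median fold from 3.89 to 3.41. It moved ACS7 to 2.82, EBF1 to 2.15 and EIL1 to 2.63. No paired analysis was possible because each group held 1 library. Depth limits the folds to the counting intervals given, which for a median summit of 86 fragments reach from 20.0% below to 23.5% above the fragment number.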

Other observations

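Several ethylene genes lie close to each other on the chromosomes. On chromosome 3, ETR2, ESE1 and ERF1 follow within a short stretch, with 30053 bp between the first pair and 7014 bp between ESE1 and ERF1. ESE1, an ERF-type gene, held summits at positions 8287438 and 8287689 with folds of 3.09 (2.39 to 3.94) and 2.08 (1.59 to 2.68). On chromosome 5, ERF2 and ERF5 are 6924 bp apart. ERF5 had a summit 15 bp beyond its lower-coordinate end at fold 2.22 (1.67 to 2.90), below both summits of ERF2 in interval, and 17 bp from AT5G47229. On chromosome 4, HLS1 and ACS8 are 91200 bp apart and both held summits, with highest folds of 3.88 and 5.59. At a like spacing on chromosome 1 (89387 bp), MKK9 held a summit and EIL3 did not. On chromosome 2, ARL held one and MPK6, 95800 bp from it, did not. ETP1 and ETP2, 23138 bp apart on chromosome 3, held none.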
